A study of Mus musculus with 12 samples.

Results

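Annotated noncoding transcripts are RNAs that RefSeq lists under an NR_ identifier, which it gives to transcripts without a recognised protein product. In this series they were taken as the NR_ transcripts longer than 200 nt whose gene had no NM_ transcript, the identifier of an mRNA. This rule chose 2917 transcripts in 2481 loci out of 71967 transcripts in 29227 genes. A locus here is all transcripts that share 1 gene identifier in the table. Testis RNA came from 12 wild-type C57BL/6 mice, in 4 age groups of 3 mice each. The groups were 3 months (3M), 6 months (6M), 12 months (12M) and 18 months (18M) old. The labels give no treatment and no engineered allele for any group. The libraries were made from rRNA-depleted RNA and kept no strand information. Where a transcript overlaps a gene on the other strand, unspliced reads of the shared bases cannot be told apart from reads of that gene.

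Long noncoding RNAs act as RNA: some hold proteins or chromatin in place, some carry small nucleolar RNAs or microRNAs in their introns, and many have no known function. The testis is known for transcribing an unusually broad set of them, above all in meiotic and postmeiotic germ cells. RefSeq's NR_ records also include transcribed pseudogenes, readthrough transcripts and ribosomal precursor RNA. Many carry a RIKEN clone name, and the first digits of a clone name tell the cDNA library it came from, which for a large series of clones was the mouse testis.

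The sequences of 3 loci that led the age comparison are shown first. Nlrp5-ps is a pseudogene of Nlrp5, which encodes an oocyte protein needed by the early embryo. A pair of its neighbouring exons, shared by both annotated transcripts, lies on the minus strand of chromosome 7 (GRCm38, chr7:14609262-14609339 and chr7:14607240-14607320) and was read from the GENCODE vM21 transcript with the same exon ends. The later exon is in capitals, so that the change of case marks the splice junction.
Nlrp5-ps: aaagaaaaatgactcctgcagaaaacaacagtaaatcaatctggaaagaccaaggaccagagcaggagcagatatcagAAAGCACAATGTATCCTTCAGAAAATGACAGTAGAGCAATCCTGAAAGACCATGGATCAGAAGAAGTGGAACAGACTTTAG
The promoter windows of 1700022A22Rik (chr15:46324335-46324634, plus strand) and Meg3 (chr12:109540746-109541045, plus strand) were taken from RefSeq on GRCm38.p6. Each runs from 250 bases before to 50 bases after the start, and CpG dinucleotides are in capitals. 1700022A22Rik is a noncoding testis clone, and Meg3 is the maternally expressed RNA of an imprinted cluster on chromosome 12.
1700022A22Rik: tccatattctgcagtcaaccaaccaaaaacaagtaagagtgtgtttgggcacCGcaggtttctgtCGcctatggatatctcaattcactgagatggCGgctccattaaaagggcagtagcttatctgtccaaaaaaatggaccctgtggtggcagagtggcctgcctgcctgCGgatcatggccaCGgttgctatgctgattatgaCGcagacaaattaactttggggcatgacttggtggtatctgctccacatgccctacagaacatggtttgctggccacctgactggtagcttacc
Meg3: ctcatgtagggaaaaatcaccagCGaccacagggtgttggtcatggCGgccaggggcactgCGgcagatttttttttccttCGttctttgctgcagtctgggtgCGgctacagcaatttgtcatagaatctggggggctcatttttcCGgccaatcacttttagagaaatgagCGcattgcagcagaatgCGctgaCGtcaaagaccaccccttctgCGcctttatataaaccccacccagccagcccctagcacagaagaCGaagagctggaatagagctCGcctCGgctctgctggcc
The window of 1700022A22Rik held 6 CpG dinucleotides and that of Meg3 held 13. RefSeq windows matched 1727 of the 2481 loci (69.6%), too few for a comparison of base composition over the whole set, which is void for that reason.

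The libraries held 50924104 to 71803379 assigned reads, and factors for scaling between libraries (TMM) ran from 0.983 to 1.02. The labelled tissue was checked against its markers. The 6 spermatid markers (protamines, transition proteins and acrosomal proteins) summed to between 11571 and 17382 CPM (counts scaled to library size, per 1e6 reads) in every library, 9 Sertoli cell markers to between 965 and 1274 CPM, and 4 epididymis markers to at most 0.455 CPM. Of 7 Leydig cell markers, 3 fell with age (Cyp11a1, Cyp17a1 and Lhcgr). All 7 together summed to 870 to 1046 CPM at 3M and 812 to 1316 CPM at 6M. The sum was 628 to 694 CPM at 12M and 551 to 759 CPM at 18M. Insl3, not among the 3, gave the largest part, with means of 566 CPM at 3M and 454 CPM at 18M. In a bulk sample, fewer cells of a type and less RNA per cell cannot be told apart. None of the 9 Sertoli and none of the 6 spermatid markers passed the test, at an adjusted p of 0.05 with edgeR's quasi-likelihood test.

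Noncoding RefSeq transcripts were short and thinly transcribed. Their median length was 1267 nt and their median exon number 3, against 2565 nt and 8 exons for 31355 RefSeq mRNAs. At least 1 read was assigned to 2633 of the 2917 transcripts, but only 904 (31.0%) reached a mean of 1 FPKM (fragments per kilobase of transcript and depth of the library, a level per length) at any age. Among mRNAs this share was 43.4%. A mean of 10 FPKM was reached by 195 noncoding transcripts. The median level over the 12 libraries was 0.221 FPKM for noncoding transcripts and 0.508 FPKM for mRNAs.

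Symbol class separated detected from undetected transcripts. Of 742 transcripts named after testis clones, 483 (65.1%) reached 1 FPKM, and their median level was 1.45 FPKM. Of 817 transcripts named after clones from other RIKEN libraries, 122 (14.9%) did so, with a median of 0.0677 FPKM. Predicted genes of the Gm series reached this level in 126 of 725 transcripts (17.4%), pseudogenes in 32 of 104, and transcripts named as opposite strand or antisense in 57 of 178. Testis clones were isolated from this tissue in the first place, and the difference is given as a description.

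**Figure D1:**
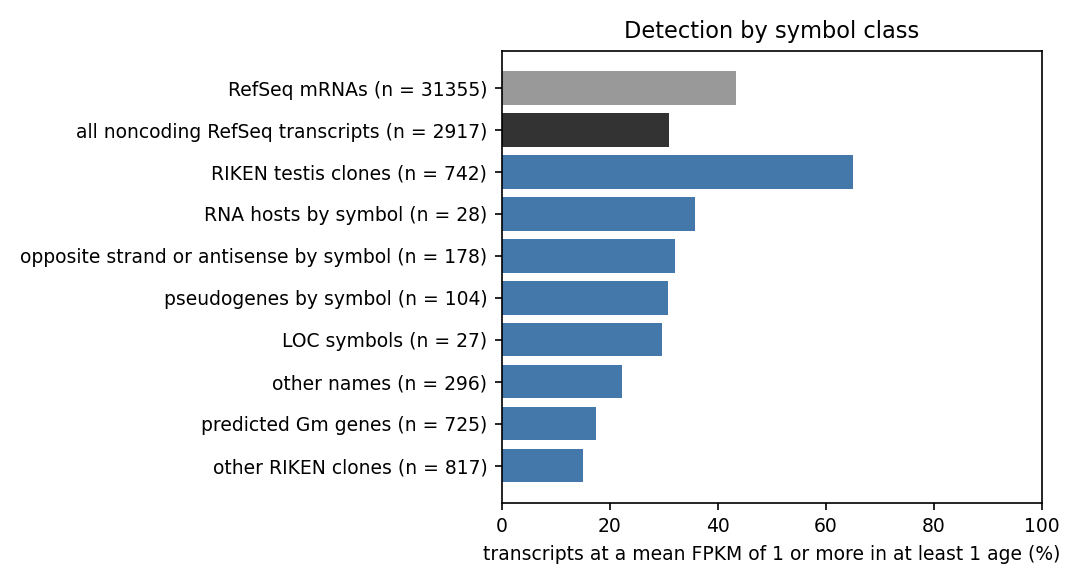
Share of transcripts whose mean reached 1 FPKM at any age (horizontal axis, percent) for RefSeq mRNAs (grey), all noncoding RefSeq transcripts (black) and their symbol classes (blue), with the number of transcripts beside each name. Testis clones stand at 65.1%, above mRNAs at 43.4%, and clones of other RIKEN libraries at 14.9%.

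Position relative to mRNA genes also went with detection. Transcripts that started head to head with an mRNA within 1 kb reached 1 FPKM in 148 of 337 cases (43.9%). Those with an exon across from an mRNA exon on the other strand did so in 155 of 482 cases (32.2%). Those inside an mRNA gene without exon overlap did so in 80 of 244 (32.8%). Another 1814 had none of these positions and no exon overlap on the same strand, and 506 of them (27.9%) did so. Beyond the 1 kb limit for head to head starts, no distance to an mRNA gene was required of them. Where exons overlap across strands, unspliced reads of the shared bases could not be assigned to a strand. On the X chromosome, whose genes are silenced in meiosis, 21 of 105 noncoding transcripts (20.0%) reached 1 FPKM, against 34.7% of the mRNAs there. On the autosomes 31.4% of noncoding transcripts and 44.0% of mRNAs did so, and noncoding transcripts were lower on both. On the Y chromosome 6 of 20 did so.

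All noncoding transcripts together took a small share of the reads at every age. In 3M mice it was 1.303% ± 0.031 (SD, n = 3), in 6M mice 1.31% ± 0.036, in 12M mice 1.35% ± 0.097 and in 18M mice 1.40% ± 0.062. From 3M to 18M the mean share went up by 0.0936 percentage points, and the libraries at 18M (1.34% to 1.46%) lay above those at 3M (1.27% to 1.33%). The share of summed FPKM overlapped between these ages (2.37% to 2.44% at 3M, 2.40% to 2.52% at 18M). No test was made of either summed value. Without the 10 transcripts that held the most reads, the difference in the share of reads was 0.0616 percentage points. Rn45s, the precursor of the ribosomal RNAs, held the most reads of all noncoding transcripts, with 0.103% ± 0.0042 of reads at 3M and 0.142% ± 0.060 at 18M. Its level was 1001, 1083 and 1028 CPM at 3M and 2100, 1034 and 1120 CPM at 18M, so a single library at 18M carried the higher mean.

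Of the 10 noncoding transcripts with the highest mean FPKM, 5 were testis clones and 3 came from a single locus, Rbakdn. 1700123L14Rik, a single exon of 1703 nt inside Fam19a1 on chromosome 6 (mm10, chr6:96164503-96166205), had the highest level, 379 FPKM. It held 699, 702 and 707 CPM at 3M and 675, 717 and 710 CPM at 18M, and the 2 ages overlapped. 1700019M22Rik followed at 327 FPKM and 1700027A15Rik at 264 FPKM. The 3 annotated transcripts of Rbakdn, a noncoding neighbour of the zinc finger gene Rbak, stood at 205, 146 and 138 FPKM. AI507597, whose exons overlap Tmem82 on the other strand, had 204 FPKM, Rn45s 195 FPKM, 1700008K24Rik 190 FPKM and 1700001J11Rik 175 FPKM. None of the 10 transcripts passed the test of the slope or of 3M against 18M.

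A pair of these transcripts showed single libraries far from the rest. 1700027A15Rik held between 141 and 185 CPM in 9 libraries but 0.0158 CPM in 12M-3, 1.14 CPM in 18M-1 and 0.0754 CPM in 18M-2. The reads summed over its 6 transcripts ran from 72.1 to 202 CPM. AI507597 held 65.4 CPM in 3M-1 and 185 to 242 CPM in the other 11 libraries, while its locus sum stayed between 185 and 244 CPM. In those libraries the reads of AI507597 lay on the other transcript of its locus, and those of 1700027A15Rik partly so.

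**Figure D2:**
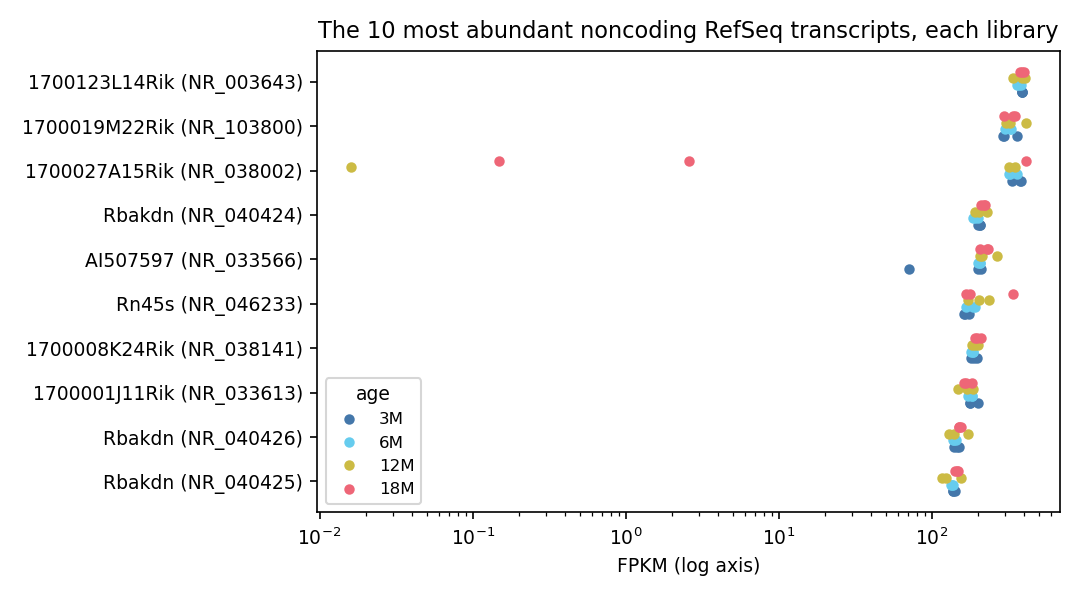
FPKM (horizontal log axis) of the 10 noncoding transcripts with the highest mean, with 1 point per library coloured by age and the RefSeq identifier in brackets. Of the 10, 8 sit above 116 FPKM in every library, AI507597 has 1 library at 71.0 FPKM, and 1700027A15Rik has 3 libraries at 2.58 FPKM or below.

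Such spread between libraries was common in loci with several transcripts. The authors' assembler splits the reads of shared exons among transcripts, and 914 of the 1671 noncoding loci tested held more than 1 transcript. Noncoding transcripts in such loci had a median coefficient of variation among mice of 1 age of 27.6%, and 23.7% of them exceeded 50%. The summed reads of the same loci had a median of 10.6%, and 2.74% exceeded 50%. In shared loci, 324 noncoding transcripts reached 5 CPM in any library. Of these 51 (15.7%) fell below 10% of their highest value in at least 1 library. In loci with a single transcript 3 of 121 did so. Among RefSeq mRNAs in shared loci it was 2620 of 10150 (25.8%), so this was not particular to noncoding transcripts. Age was tested both per transcript and on reads summed per locus.

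The first question was which noncoding RNAs changed over the whole age range. The slope of log2 CPM on age in months was fitted over the 12 libraries with edgeR's quasi-likelihood test, with p-values adjusted by Benjamini and Hochberg over all features. Per transcript, 0 of 1822 noncoding transcripts tested passed an adjusted p of 0.05, against 6 of all 58289 transcripts (0.0103%). At an unadjusted p of 0.05, 100 noncoding transcripts (5.49%) passed, against 7.15% of all transcripts. A positive slope was found in 64 of them (3.51% of those tested), against 3.5% of all. DESeq2 called 21, against 1.58% of all transcripts. Per locus, 1 of 1671 noncoding loci passed, Nlrp5-ps, against 50 of all 23228 loci (0.215%). DESeq2 called 25 noncoding loci, 22 of them upward, against 566 of 27459 loci (2.06%).

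Among loci named below for their rank by p or their call, the sum covers every transcript with the gene identifier, assembled ones included. Of these 16 loci 13 had more than 1 transcript, and in 9 of the 13 the annotated members held under 50% of the reads. In 7 of the 13 the reads on the annotated members alone overlapped between 3M and 18M.

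The summed reads of the Nlrp5-ps locus rose with age. The locus held 8.21, 8.35 and 8.19 CPM at 3M, 7.75, 8.19 and 7.78 CPM at 6M, 9.84, 11.2 and 10.2 CPM at 12M and 11.02, 10.98 and 11.9 CPM at 18M. All libraries at 12M and 18M lay above all libraries at 3M and 6M. The slope was 0.036 ± 0.0055 (SE) log2 units per month, with an adjusted p of 0.0227 from edgeR, and the mean at 18M was 1.37 times that at 3M. Leaving out 3M-1, 6M-2, 12M-1, 18M-2 or 18M-3 took the adjusted p above 0.05, with slopes from 0.0339 to 0.0374. The locus has 4 transcripts in the table, 2 from RefSeq and 2 assembled. In each of the 12 libraries an assembled one, not an annotated one, held the most reads. The annotated pair held 20.6% of the reads, at 0.837, 2.03 and 1.06 CPM at 3M and 2.75, 1.73 and 2.15 CPM at 18M, which overlap.

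Other loci with the smallest p-values did not pass and are given with their values. The locus of 1700022A22Rik held 16.6, 17.3 and 15.002 CPM at 3M and 24.5, 22.3 and 21.1 CPM at 18M, without overlap, with a slope of 0.038 ± 0.0072 (edgeR adjusted p = 0.0598). Of its 8 transcripts only NR_045509 is annotated, and this held 0.989, 2.12 and 0.697 CPM at 3M and 0.722, 1.11 and 3.04 CPM at 18M, which overlap. The locus of 4930523O13Rik (chr15:46435866-46496179) neighbours it (chr15:46324585-46373899) on chromosome 15 and ranked 10 by p, at 18.1 ± 1.42 CPM at 3M and 23.4 ± 1.69 CPM at 18M, with 6.31% of the reads on its annotated transcript. 1700109G14Rik, whose locus has a single transcript, held 27.0, 26.7 and 24.4 CPM at 3M and 31.9, 31.0 and 32.0 CPM at 18M (adjusted p = 0.0826).

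The locus of Meg3 was the only one of the 10 first-ranked by the slope with a negative slope. It held 19.4, 19.2 and 16.9 CPM at 3M, 17.3, 19.2 and 19.4 CPM at 6M, 11.3, 13.0 and 16.2 CPM at 12M and 14.04, 12.2 and 9.99 CPM at 18M. Every library at 12M and 18M lay below every library at 3M and 6M. The slope was -0.046 ± 0.0090 log2 units per month (edgeR adjusted p = 0.0617). Most of these reads lay on an assembled transcript, at 13.5, 14.9 and 12.4 CPM at 3M and 9.56, 8.83 and 6.69 CPM at 18M. The 3 annotated transcripts together held 10.1% of the reads, at 3.39, 0.760 and 0.749 CPM at 3M and 0.774, 1.85 and 1.32 CPM at 18M, which overlap. The other maternally expressed RNAs of the cluster that were listed differed in sign as locus sums. The slope was -0.021 ± 0.0093 for Rian (edgeR adjusted p = 0.306) and 0.0078 ± 0.0052 for Mirg (adjusted p = 0.491). The annotated transcript of Mirg had a mean of 0.058 FPKM, while its locus of 3 transcripts held 10.7 CPM at 3M. Of the 7 Leydig cell markers 3 fell over the same ages, 6 had a negative slope, and Hsd3b1 had a slope of 0.0022. Their part in the values of Meg3 was not tested.

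The remaining first-ranked loci were testis clones and Lyzl4os, and their locus sums at 18M did not overlap those at 3M. Lyzl4os lies inside Lyzl4, a lysozyme-like gene, and held 27.7 ± 2.85 CPM at 3M and 35.02 ± 0.70 CPM at 18M (n = 3 each). Its annotated transcript held 81.5% of the reads, and its exons do not overlap those of Lyzl4. Both had a slope of 0.020 log2 units per month. 1700049L16Rik, the only transcript of its locus, held 85.6 ± 4.38 CPM at 3M and 102 ± 2.06 CPM at 18M. 1700092E19Rik, 4933412O06Rik and 1700001K23Rik were 1.25, 1.301 and 1.34 times as high at 18M as at 3M as loci, with 26.6%, 62.7% and 41.0% of the reads on the annotated transcript. Their adjusted p-values from edgeR ran from 0.0832 to 0.117.

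**Figure D3:**
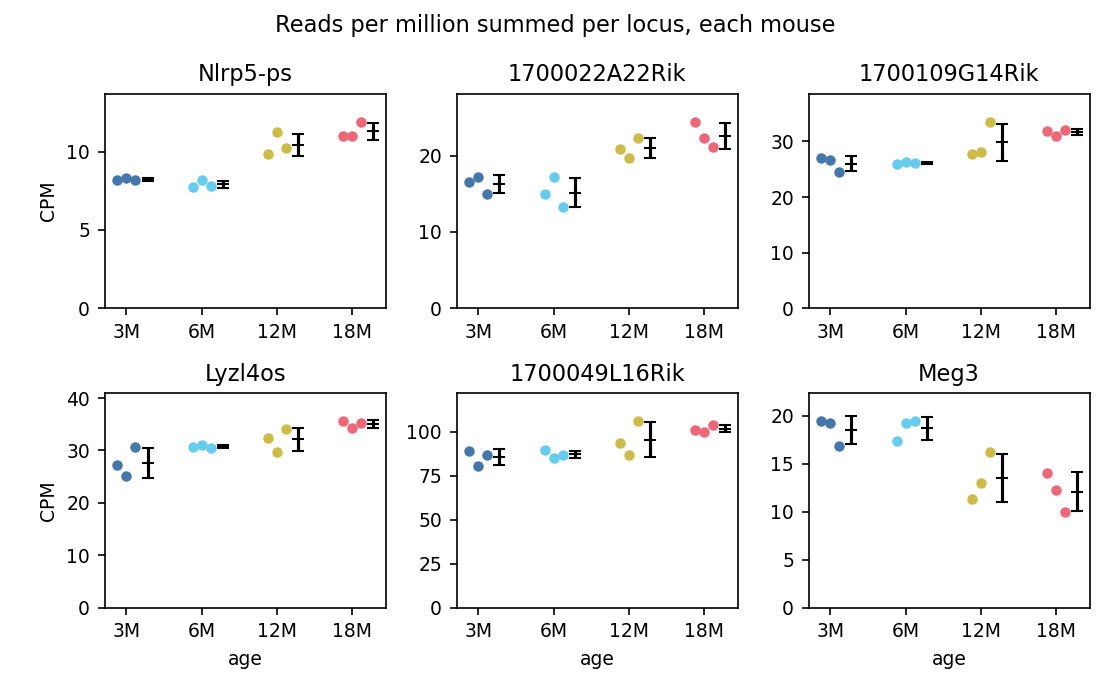
CPM summed per locus (vertical axes, from 0) by age (horizontal axes) for 6 loci, with 1 coloured point per mouse and the mean ± SD of 3 mice as a black bar beside the points. All transcripts of a locus are summed, and Nlrp5-ps rises from 8.25 to 11.3 CPM between 3M and 18M while Meg3 goes from 18.5 to 12.1 CPM.

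Beyond single loci, the fitted slopes of noncoding loci lay to the positive side. The slope was positive in 1072 of 1671 noncoding loci (64.2%), against 50.5% of all loci and 44.7% of loci with an mRNA. In 4661 loci with an assembled, unannotated transcript between genes it was positive in 3086 (66.2%). The lean was thus not particular to annotated noncoding loci. The median slope was 0.0057 log2 units per month for noncoding loci and 0.00019 for all loci. At an unadjusted p of 0.05, 173 noncoding loci had a positive and 41 a negative slope (12.8% of those tested), against 1724 positive (7.42%) and 1956 negative among all loci (15.8% in all). The share that passed was thus no higher than the background, while positive slopes outnumbered negative ones among noncoding loci and not among all loci. This split was not tested.

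By symbol class the lean was largest in testis clones among the classes given here. Their slope was positive in 476 of 626 loci (76.0%), with a median of 0.0075 log2 units per month. In the other noncoding loci it was positive in 596 of 1045 (57.0%), and in clones of other RIKEN libraries in 185 of 365 (50.7%). Detection level differed between these classes, and the share grew with it: 52.8% of noncoding loci under 1 CPM, 65.4% of those from 1 to 5 CPM and 71.6% of those above 5 CPM had a positive slope. Above 5 CPM the share was 78.6% for 360 testis clones and 59.5% for 84 clones of other libraries. In all noncoding loci with a single transcript in the table the share was 58.1%, and per annotated transcript the slope was positive in 58.7% of 1822, against 50.8% of all transcripts.

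The same lean was seen in the ranges of the libraries. Between 3M and 18M, 207 of 1600 noncoding loci (12.9%) had all 3 libraries at 18M above all 3 at 3M, against 9.48% of all loci, and 69 (4.31%) had them below, against 10.5% of all loci. The slopes of all 6 spermatid markers were positive, with a median of 0.014 log2 units per month, though none passed. Of 7 Leydig markers 6 had a negative slope. A positive slope was also found in 4 of 4 lymphocyte and 3 of 6 spermatocyte markers. It was found in 2 of 9 Sertoli, 1 of 6 spermatogonia, 1 of 4 endothelial and 1 of 4 blood markers. It was found in 0 of 6 macrophage, 0 of 4 peritubular myoid and 0 of 1 epididymis markers tested. The part of cell composition in the lean was not tested.

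**Figure D4:**
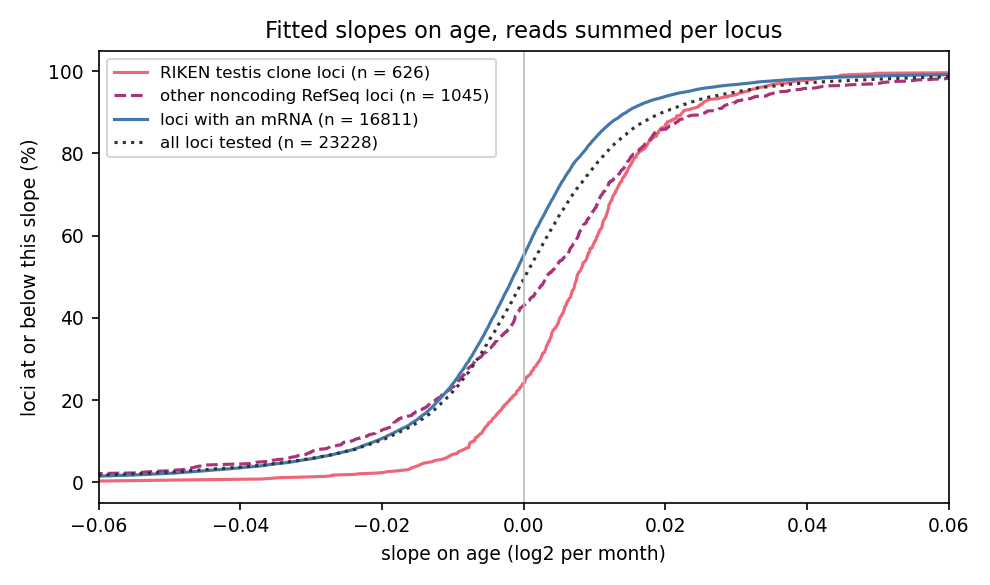
Cumulative share of loci (vertical axis, percent) by fitted slope on age (horizontal axis, log2 per month) for testis clone loci, other noncoding RefSeq loci, loci with an mRNA and all loci tested. The testis clone curve is shifted to the right, with 76.0% of its loci above a slope of 0, against 44.7% of loci with an mRNA.

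The second question was which noncoding RNAs differed between the youngest and the oldest mice. Called here means an adjusted p of 0.05 or less and a log2 change of 1 or more in either direction. Per transcript, 1 of 1685 noncoding transcripts was called, NR_033148 of Gm20605, against 59 of all 54472 transcripts (0.108%). Per locus, 1 of 1600 was called, again Gm20605, against 14 of all 22691 loci (0.0617%). At an unadjusted p of 0.05 and the same size of change, 27 noncoding transcripts (1.60%) passed, against 2.57% of all, and 11 of them were higher at 18M (0.653% of those tested), against 1.21%. Per locus 14 passed (0.875%), against 0.811%, with 7 higher at 18M, against 0.401%. DESeq2 called 19 noncoding transcripts, against 1.91% of all, and 3 loci, against 0.264%. The sign of the change was positive in 965 of the 1685 noncoding transcripts (57.3%), against 50.4% of all transcripts.

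Gm20605 is a readthrough transcript of 22 exons and 4513 nt on chromosome 5 (mm10, chr5:137629123-137642896, plus strand) that runs through Lrch4, which encodes a leucine-rich repeat membrane protein, into Sap25. It held 13.4, 11.9 and 14.1 CPM at 3M, 167, 10.1 and 181 CPM at 6M, 12.7, 14.6 and 16.5 CPM at 12M and 173, 172 and 166 CPM at 18M. The libraries fell into a low and a high set with nothing between 16.5 and 166 CPM, and 6M mice were found in both. The log2 change from 3M to 18M was 3.69 ± 0.091 (edgeR adjusted p = 0.00597), and with all 12 libraries in the fit it was no longer called.

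The Lrch4 mRNA NM_146164 showed the opposite pattern in the same libraries. All 3081 of its bases lie within the exons of NR_033148, and 17 exons of the 2 transcripts have identical ends. The mRNA held 161, 150 and 175 CPM at 3M, 1.26, 155 and 4.05 CPM at 6M, 161, 177 and 153 CPM at 12M and 1.97, 3.998 and 0.829 CPM at 18M. The 2 transcripts together held 175 ± 13.8 CPM at 3M and 173 ± 5.13 CPM at 18M, and between 162 and 191 CPM in all 12 libraries. The loci of Gm20605 and Lrch4 summed to 192 ± 8.32 CPM at 3M and 193 ± 6.73 CPM at 18M, a log2 change of 0.0048. The difference called for Gm20605 was thus absent from the sum of the pair, and why the assignment of reads differed between libraries was not tested.

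**Figure D5:**
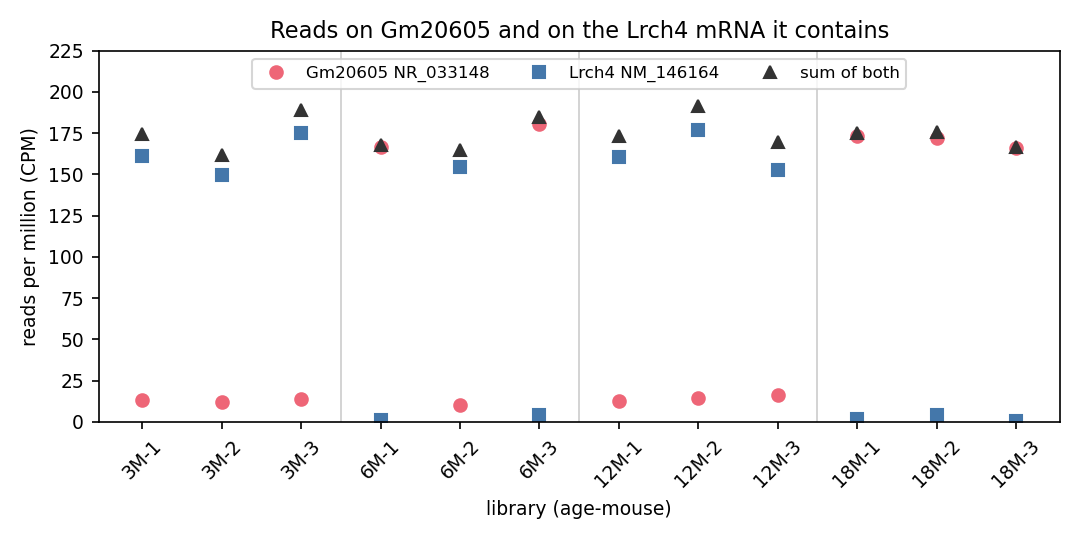
CPM (vertical axis) in each of the 12 libraries (horizontal axis, age and mouse number) for NR_033148 of Gm20605 (circles), the Lrch4 mRNA NM_146164 (squares) and their sum (triangles). The reads change places between the pair in 6M-1, 6M-3 and all 18M libraries, while the sum stays between 162 and 191 CPM.

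The locus that ranked next was high in the same libraries, but here the summed reads themselves differed and no partner was examined. The summed reads of 9330111N05Rik were 1.96, 1.97 and 1.96 CPM at 3M and 37.5, 29.0 and 7.69 CPM at 18M, a log2 change of 3.65 ± 0.56 that was not called (edgeR adjusted p = 0.228). At 6M they were 40.03, 1.90 and 37.9 CPM, so the high libraries were the same as for Gm20605. The annotated transcript NR_015587 itself stayed between 0.436 and 0.897 CPM in all 12 libraries, and the difference lay on assembled intronic transcripts that carry its gene identifier. In H19, an imprinted RNA, the division of reads between its own transcripts differed among libraries. NR_130974 was at 0 reads in all 6M and 18M libraries and between 0.459 and 0.829 CPM at 3M and 12M, while the H19 locus held 1.37 ± 0.12 CPM at 3M and 1.53 ± 0.094 CPM at 18M.

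The remaining first-ranked loci between 3M and 18M were not called. Sp3os, which overlaps the transcription factor gene Sp3 on the other strand, held 3.28, 3.18 and 3.01 CPM at 3M and 1.87, 2.22 and 2.06 CPM at 18M as a locus (edgeR adjusted p = 0.316). The locus sums did not overlap, but its annotated transcript, at 1.47 to 1.88 CPM at 3M and 1.21 to 1.72 CPM at 18M, did. 1700057H21Rik, E130112N10Rik and 2810408I11Rik were 1.53, 1.49 and 1.18 times as high at 18M as at 3M, each with an adjusted p of 0.337. The annotated transcript of E130112N10Rik held 0.368% of the reads of its locus. Nlrp5-ps, 1700022A22Rik, 1700049L16Rik and 1700109G14Rik ranked here too, at 1.37, 1.39, 1.19 and 1.22 times the 3M level, all under the log2 change of 1. Both comparisons use the same mice at 3M and 18M and are not independent.

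Between consecutive ages almost nothing was called per transcript. From 3M to 6M, 0 of 1685 noncoding transcripts were called with edgeR, against 28 of all 54369 (0.0515%), with 25 at an unadjusted p of 0.05 (1.48% of those tested, against 1373 of all 54369) and 19 by DESeq2 (1.69% of all). From 6M to 12M, 0 of 1683 were called, against 11 of 54444 (0.0202%), with 23 at an unadjusted p (1.37%, against 1441 of all 54444) and 18 by DESeq2 (1.86% of all). From 12M to 18M, 1 of 1697 was called, against 11 of 54622 (0.0201%), and it was again NR_033148 of Gm20605, at a log2 change of 3.54 (edgeR adjusted p = 0.0138). At an unadjusted p 12 passed (0.707%, against 1187 of all 54622), and DESeq2 called 9, against 1.07% of all. Leaving out 12M-1, 12M-2 or any library at 18M ended this call, and leaving out 6M-2 added Gm20605 between 3M and 6M. Lrch4 moved the opposite way in the same libraries, as described.

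Mean levels that moved in 1 direction at every step were also counted, with no test. Of the 904 noncoding transcripts at 1 FPKM or more, the mean FPKM rose from each age to the next in 79 (8.74%) and fell in 25 (2.77%). Over all 40972 transcripts at that level the shares were 5.63% rising and 4.61% falling, and among mRNAs 5.002% and 6.46%. The 2 directions thus lay on opposite sides of the background, as the slopes did.

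Well-known noncoding RNAs differed widely in level. Of 13 loci of nuclear and regulatory RNAs tested, 0 passed the slope test with edgeR, adjusted or unadjusted. Of 15 loci of nuclear and regulatory RNAs, 6 reached 1 FPKM. Neat1, which builds nuclear paraspeckles, had a mean of 24.9 FPKM over its annotated transcripts. These held 4.55 FPKM in 6M-2, 4.24 FPKM in 18M-3 and 25.6 to 31.6 FPKM in the other 10 libraries. The Neat1 locus sum differed less, at 84.5 CPM in 6M-2, 79.2 CPM in 18M-3 and 107 to 134 CPM in the other 10. Tug1 had 12.8 FPKM. Malat1, a nuclear speckle RNA, averaged 11.1 FPKM but was uneven, with 35.1, 38.3 and 36.6 FPKM in 3M-3, 6M-2 and 18M-1 and 1.81 to 5.11 FPKM in the other 9 libraries. Firre, Peg13 and Crnde had 2.15, 3.39 and 1.14 FPKM. Hotair reached at most 0.294 FPKM and Xist, the RNA that coats the inactive X chromosome in females, at most 0.136 FPKM.

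Loci listed as hosts of small nucleolar RNAs were mostly detected. The list held the Snhg symbols, Gas5, Zfas1, Epb41l4aos, Dancr and Rmst. Whether Rmst carries such an RNA was not checked, and it was under 1 FPKM with a slope of 0.0090. Of these 19 loci 14 reached 1 FPKM, and all 19 were tested. With edgeR 0 passed an adjusted p of 0.05, and 2 passed unadjusted, Snhg8 and Snhg20, both with a positive slope. At this threshold 15.8% of all loci passed, so the count is not above the background. Snhg20 held 2.86 ± 0.33 CPM at 3M and 3.62 ± 0.50 CPM at 18M. The locus of Snhg8, with 3 transcripts, held 16.5 ± 1.55 CPM at 3M and 18.8 ± 1.23 CPM at 18M. Its annotated transcript had a mean of 0.472 FPKM. Snhg3, the only transcript of its locus, was the most abundant of them at 12.1 FPKM and uneven between libraries. It held 19.7, 1.53 and 12.9 FPKM at 3M and 2.14, 1.92 and 2.55 FPKM at 6M. At 12M it held 2.34, 15.5 and 25.2 FPKM, and at 18M 17.7, 19.9 and 23.7 FPKM. Snhg6 had 6.33 FPKM and Zfas1 3.25 FPKM. Of the 19 slopes 15 were positive, with a median of 0.011 log2 units per month.

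Annotated imprinted, structural and microRNA host transcripts were mostly under 1 FPKM, though several of their loci were well counted. Of 11 imprinted loci, 2 had an annotated transcript at 1 FPKM, Nespas at 2.28 FPKM and Peg13, and 0 of 9 tested passed with edgeR. Of these 3 passed unadjusted, all with a negative slope, Meg3, Rian and Kcnq1ot1, beside 15.8% of all loci. The locus of Kcnq1ot1 held 32.3 ± 0.55 CPM at 3M and 29.03 ± 2.87 CPM at 18M, and that of Mirg 10.7 ± 0.25 and 11.1 ± 0.53 CPM. None of 3 structural RNAs of ribonucleoproteins (Rmrp, Rpph1 and Terc), none of 4 loci of the X inactivation centre and none of 9 microRNA hosts had a transcript at 1 FPKM. The locus of Mir9-3hg held 13.2 ± 0.58 CPM at 3M and 13.2 ± 0.72 CPM at 18M. Of these last 3 groups 1, 3 and 6 loci were tested. With edgeR 0 passed an adjusted p, and 1, Mir99ahg, passed unadjusted, beside 15.8% of all loci. The locus of Mir99ahg, with 3 transcripts, held 8.99 CPM at 3M, while its annotated transcript had a mean of 0.0886 FPKM.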

How the data were processed

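RNA-seq tables of 12 mouse testis libraries (3 mice at each of 4 ages) were used. The authors aligned reads to mm10 with HISAT2 and assembled and quantified transcripts with StringTie. The deposited counts are whole-number read counts per transcript, made from StringTie coverage and rounded up, and reads on shared exons are divided among transcripts. The deposited FPKM values are the authors' fragments per kilobase scaled to the library's mapped fragments, with no further scaling between libraries. FPKM served for levels and counts for tests. Libraries held 50924104 to 71803379 reads. Single low counts therefore carry counting error, and rounding up lifts the lowest values.

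Counts were analysed per transcript and summed per gene identifier with edgeR 4.0.16 in R 4.3.3 (TMM scaling, filterByExpr by age, quasi-likelihood test, Benjamini-Hochberg adjustment over all features). CPM values use the TMM-scaled library sizes. DESeq2 1.42.0, other scalings, filters and left-out libraries were alternatives. Scripts were tested on simulated counts. Age was fitted as a slope in months over 12 libraries, and pairs of ages on their own 6 libraries. Nothing pairs mice across ages beyond a replicate number. Named were called members, the 10 smallest p-values per locus comparison at a mean of 1 CPM or more, the 10 highest mean FPKM values, and members of the gene lists. List members under 1 FPKM that are named (Meg3, Rian, Kcnq1ot1, Mirg, H19, Snhg8, Mir9-3hg, Mir99ahg, Hotair, Xist, Rmrp, Rpph1, Terc) and the pairs behind Gm20605 were added after their values were seen. The members and lists were chosen with earlier results of these data known.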

Additional observations from a re-analysis of the deposited data

How the results depend on the processing

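DESeq2 called more features than edgeR, among noncoding ones and among all. It called 21 noncoding transcripts for the slope and 19 for 3M to 18M. Between consecutive ages it called 19 for 3M to 6M, 18 for 6M to 12M and 9 for 12M to 18M. Over all transcripts it called 1.58%, 1.91%, 1.69%, 1.86% and 1.07%, in the same order. It called 25 noncoding loci for the slope and 3 for 3M to 18M, against 2.06% and 0.264% of all loci. At an unadjusted p the counts were 100, 27, 25, 23 and 12 noncoding transcripts and 214 and 14 noncoding loci, in the same order. Of all transcripts 7.15% and 2.57% passed in the first 2 comparisons. In the others 1373 of 54369, 1441 of 54444 and 1187 of 54622 passed. Of all loci 15.8% and 0.811% passed. Same-numbered mice did not deviate together (r from -0.060 to 0.069 per locus over 18 pairs). The replicate block left 0 noncoding calls in each comparison, per transcript and per locus. For the slope it left 3 of all 58289 transcripts and 25 of all 23228 loci. With robust dispersion 3 noncoding loci passed for the slope (Nlrp5-ps, Meg3 and 1700022A22Rik), against 79 of all 23228 loci. For 3M to 18M 0 passed, against 12 of all 22691 loci. With all libraries in the fit 0 noncoding loci passed for 3M to 18M, against 22 of all 23228 loci. In that fit 1 noncoding transcript passed, against 18 of all 58289. It was NR_130974 of H19 in place of Gm20605 (log2 change -7.94, adjusted p = 0.0481, edgeR).

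Leaving out single libraries gave 0 to 0 transcripts for the slope, 1 to 1 for 3M to 18M, 0 to 1 for 3M to 6M, 0 to 0 for 6M to 12M and 0 to 1 for 12M to 18M. It gave 0 to 3 noncoding loci for the slope and 1 to 3 for 3M to 18M. The highest counts came without 18M-1, where 133 of all 23469 loci passed for the slope and 32 of all 22938 for 3M to 18M. Without 3M-3, the locus of Gm20605 was no longer called and Gm13483 was. Without 18M-1, Znf41-ps and 5730412P04Rik were added, and without 18M-3, 9330111N05Rik. For the slope, 1700022A22Rik passed without 6M-3, 1700109G14Rik without 12M-3, Gm13483 without 3M-3, and Meg3 and 1700071M16Rik without 18M-1.

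The share of noncoding loci with a positive slope was 64.2%. All loci were fitted on the same 12 libraries and are not independent, so no interval is given. The share was 60.9% with DESeq2, 60.8% without a filter, 68.7% at 1 CPM in 3 libraries and 58.1% in loci with 1 transcript. Without single libraries it was 60.9% to 64.5%. Alternatives for this share were chosen after seeing the data. At a minimum of 2 FPKM 601 transcripts were detected, and 905 to 913 without single libraries. Steadily rising transcripts numbered 65 to 101 without single libraries. Steadily falling ones numbered 43 at a minimum of 0.5 FPKM, 13 at 2 FPKM and 18 to 34 without single libraries. The difference in the share of reads was 0.0605 to 0.122 percentage points without single libraries. Over 21 named values and 344 alternatives with a test, 316 kept direction and side of the threshold, 16 passed it newly and 12 lost it. A value that did not pass in the main fit counts as kept where it again did not pass. From 3M to 18M, a value under the log2 limit of 1 could not be called at any p. The count therefore says little about the few calls, whose changes are given above. The other 64 alternatives have no test, and 0 of them changed direction.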
